A study of Homo sapiens with 28 samples.

Results

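The first 4 days of neural induction under the WNT secretion inhibitor IWP2 were followed in wild-type (WT) H9 cells, a human embryonic stem (ES) cell line in wide use. The comparison takes the 2 WT libraries of IWP2 day 4 and the 2 WT libraries of undifferentiated ES cells, which are 4 of the 28 libraries of the series. The whole series covers WT and SOX1-/- (KO) H9 cells as ES cells and on days 4 and 8 under 3 culture conditions, IWP2, CT0.4 and CT1.0, with 2 libraries in each of 14 groups. The labels do not spell out CT0.4 and CT1.0, nor do they say whether libraries of one group came from separate cultures. Further groups used here were KO IWP2 day 4, KO ES, WT CT0.4 day 4, WT CT1.0 day 4, KO CT1.0 day 4 and WT IWP2 day 8. Libraries carry the numbers 1 and 2 in WT groups, and 26 and 48 in KO groups. The series asks what SOX1 does when human ES cells turn neural, and the WT day 4 step is the background against which that is read.

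A human ES cell is held in a pluripotent epithelial state by POU5F1, NANOG and SOX2 together with FGF2 and NODAL signalling. When NODAL and BMP signalling are low such cells turn neural, E-cadherin gives way to N-cadherin, and the regional character of the new neuroepithelium is, without further signals, the most anterior one, the eye field and forebrain. WNT signals push that character towards midbrain and hindbrain. IWP2 is a small molecule that inhibits porcupine, the enzyme that lipidates WNT proteins before they are secreted, so it lowers the WNT that the cells themselves supply. SOX1 is a SOXB1 transcription factor of neural progenitors.

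Gene levels are in TPM, a relative unit scaled for transcript length and to the same total in every library. A gene was tested if it reached a TPM of at least 1 in at least 2 of the 4 libraries, which 20476 of 58219 genes did. A gene under 1 TPM in both libraries of 1 group passed only through the other group, which largely set its direction. Fold changes are differences of mean log2(TPM + 1), IWP2 day 4 minus ES, with standard errors and Benjamini-Hochberg adjusted p-values from limma, and a gene was called at an adjusted p under 0.05. All 28 libraries were fitted together. Standard errors and p-values thus rest on the spread within all 14 groups of 2 libraries, not within these 4 libraries alone. They measure only the spread between libraries. In bulk RNA, fewer cells of a type and less RNA per cell cannot be told apart.

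A large part of the transcriptome differed between IWP2 day 4 and ES. IWP2 and 4 days of differentiation go together in this comparison, so their parts cannot be told apart. Of the 20476 genes tested, 10029 (49%) were called, 5867 higher (28.7%) and 4162 lower (20.3%) at IWP2 day 4 than in ES. A limma fit of only these 4 libraries called 7742 genes. The median log2 fold change of all genes was 0.16, and scaling the columns by median ratios moved it to -0.01 and turned the split to 4397 higher and 5351 lower. Of the called genes, 2464 were higher and 2415 were lower by at least 1 on the log2 scale. At 3 or more on that scale, 130 were higher and 303 were lower. At 5 or more, 21 were higher and 54 were lower. The 2 day 4 libraries held 19401 and 19250 genes at 1 TPM or more, and the 2 ES libraries 19329 and 19021. Mitochondrial transcripts took 6.77% and 6.93% of the TPM in the day 4 libraries, against 9.87% and 11.5% in the ES libraries.

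The 7 genes chosen to mark IWP2 day 4 or ES were each higher in the group they were chosen for. DLK1, a transmembrane relative of the NOTCH ligands, had 523 and 519 TPM on day 4 and 2.85 and 0.842 TPM in ES. LHX2, a LIM-homeodomain factor needed for eye formation, had 181.8 and 160.3 TPM in the day 4 libraries, against 0.152 and 0.135 TPM in the ES libraries. RAX, the retina and anterior neural fold homeobox gene, had 165 and 159 TPM at IWP2 day 4, against 0.239 and 0.276 TPM in ES. These 3 genes were near the floor of detection in ES and among the abundant transcripts of day 4. SIX3, which holds back WNT transcription in the anterior neural plate of the mouse, had 157 and 156 TPM on day 4 and 0.206 and 0.652 TPM in ES. PAX6, a paired-box factor of eye and forebrain progenitors, had 94.7 and 91.2 TPM in the day 4 libraries, against 1.23 and 1.49 TPM in the ES libraries. The fold changes of these genes ranged from 5.32 to 7.61 on the log2 scale, and no library of one group overlapped the other. The same lack of overlap was found for 72.9% of all genes tested. On the ES side, POU5F1, the core pluripotency factor OCT4, had 29.6 and 39.7 TPM at IWP2 day 4, against 2514 and 2399 TPM in ES. TDGF1, the NODAL co-receptor CRIPTO, had 0.238 and 0.243 TPM on day 4 and 249.7 and 275 TPM in ES. POU5F1 fell by 6.12 and TDGF1 fell by 7.73 on the log2 scale (adjusted p = 2.66e-11 and 4.54e-14, limma). On day 4 POU5F1 transcript was still measured, while TDGF1 was under 1 TPM.

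Called genes were ranked if they had a proper symbol, no overlap between groups and at least 10 TPM in the higher group. The 15 highest had log2 fold changes from 5.06 to 7.61 and mixed transcription factors with secreted and signalling proteins. Rows with clone-like names were left out of this ranking by a name pattern that was completed after values had been seen. It removed 4 rows from the high end, all of them short Six3os1 rows of the SIX3 locus with changes up to 8.25, and 6 clone-named rows from the low end. SMOC1, a secreted BMP antagonist of the SPARC family, had 181 and 179 TPM in the day 4 libraries, against 1.704 and 1.35 TPM in the ES libraries. GREB1L, a retinoic acid target gene in which human variants disturb kidney and inner ear, had 163 and 167 TPM at IWP2 day 4, against 1.95 and 1.68 TPM in ES. CNTFR, the receptor subunit for ciliary neurotrophic factor, had 134 and 141 TPM on day 4 and 2.54 and 1.04 TPM in ES. All 3 were over 100 TPM on day 4 and at a few TPM or less in ES. PAMR1, a secreted protein with peptidase-like and EGF domains, had 315 and 303 TPM in the day 4 libraries, against 6.27 and 3.94 TPM in the ES libraries. PRSS23, a serine protease, had 264 and 269 TPM at IWP2 day 4, against 5.16 and 4.33 TPM in ES. MAPK10, the JNK3 kinase of neural cells, had 190.2 and 161 TPM on day 4 and 4.59 and 3.99 TPM in ES. Their log2 fold changes were 5.69 ± 0.39, 5.54 ± 0.23 and 5.06 ± 0.23, each with an adjusted p of 3.23e-09 or less. LIX1, a marker of early chick limb and brain, had 63.4 and 58.5 TPM in the day 4 libraries, against 0.359 and 0.235 TPM in the ES libraries. CNTFR-AS1, a transcript antisense to CNTFR, had 52.9 and 52.8 TPM at IWP2 day 4, against 0.516 and 0 TPM in ES. No strand setting of the counting is stated, so reads of CNTFR and its antisense partner cannot be told apart. The remaining members were LINC01833 and PAX2.

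**Figure D1:**
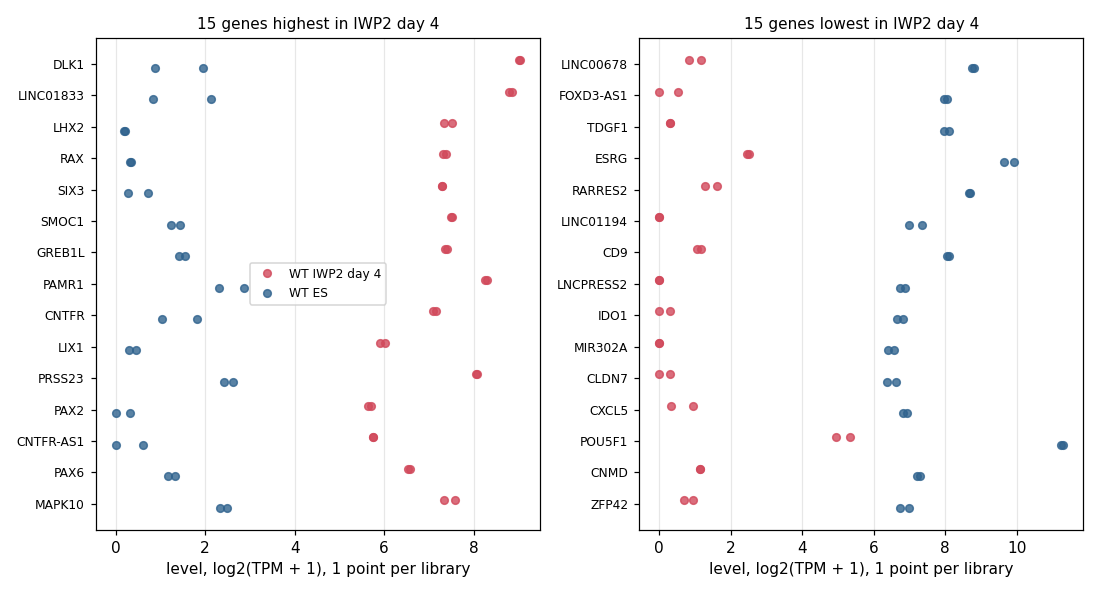
Level of the 15 ranked genes highest (left) and the 15 lowest (right) in WT IWP2 day 4 relative to WT ES, in order of fold change, without 4 Six3os1 rows and 6 clone-named rows. The x axis is log2(TPM + 1), red points are the 2 WT IWP2 day 4 libraries and blue points the 2 WT ES libraries. Only genes whose day 4 and ES libraries do not overlap were ranked, so the gap between the points follows from the choice of genes. POU5F1 is the gene of the right panel that keeps the highest day 4 level.

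The tested eye field genes had the highest median fold change of the gene lists described here. Of 11 listed members 5 reached the filter and all 5 were called higher, LHX2, RAX, SIX3, PAX6 and SIX6. Their median log2 fold change was 6.80, against 0.16 over all genes tested, of which 28.7% were called higher. LHX2, RAX, SIX3 and SIX6 were under 1 TPM in both ES libraries, so they were tested only through the day 4 libraries. Their direction was thus largely set by the filter, and members that missed the filter are not in the median. SIX6, a SIX-family factor of retina and hypothalamus, was much lower in level than SIX3, with 11.8 and 14.8 TPM on day 4 and 0.0549 and 0.0551 TPM in ES. TBX3, RAX2, HMX1, NR2E1 and MAB21L2 were under 1 TPM in both day 4 libraries. The listed eye field genes thus fell into abundant ones on day 4, SIX6 at a lower level, and members under 1 TPM.

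The SIX3 locus stood out for its noncoding transcripts, which were added here after their values were seen. LINC01833, a long noncoding RNA next to SIX3 that is also among the 15 highest genes, had 466 and 441 TPM in the day 4 libraries, against 3.36 and 0.768 TPM in the ES libraries. SIX3-AS1, whose name gives it as the antisense RNA of SIX3, had 30.7 and 36.5 TPM at IWP2 day 4, against 0 and 0.129 TPM in ES. Among short rows of the miscellaneous RNA class, Six3os1_2 had 1063 and 1084 TPM on day 4 and 2.49 and 2.59 TPM in ES. Six3os1_1 had 904 and 804 TPM in the day 4 libraries, against 0 and 11.3 TPM in the ES libraries. Both short rows and LINC01833 were above SIX3 itself in TPM in both day 4 libraries, and in ES all were under 12 TPM. All of these rows lie in one region of chromosome 2 in GENCODE 29 (GRCh38), with SIX3 at chr2:44941898-44946077 on the plus strand, SIX3-AS1 at chr2:44940154-44941873 on the minus strand and LINC01833 at chr2:44921077-44939199 on the minus strand. Six3os1_1 and Six3os1_2 lie inside LINC01833 on the plus strand, at chr2:44932320-44932406 and chr2:44934055-44934271. TPM divides by length, so a short row inside a longer gene can take a high value, and reads shared by overlapping rows are uncertain.

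Other anterior forebrain genes had smaller fold changes, and several were already expressed in ES. Of 15 listed genes 7 were tested, 6 were called higher and none lower, with a median log2 fold change of 1.43. Over all genes tested, 28.7% were called higher and 20.3% lower. FEZF1, a zinc finger factor of the rostral forebrain, had 444 and 420.2 TPM at IWP2 day 4, against 53.6 and 47.8 TPM in ES. HESX1, a homeobox repressor of the anterior neural plate, had 121 and 96.3 TPM on day 4 and 8.31 and 18.7 TPM in ES. LHX5, a LIM-homeodomain factor that promotes secreted WNT antagonists in zebrafish forebrain, had 31.8 and 31.9 TPM in the day 4 libraries, against 1.51 and 0.807 TPM in the ES libraries. FEZF1 and HESX1 were thus already present in ES, while LHX5 was close to 1 TPM there. OTX2, the forebrain and midbrain homeobox factor that ES cells also express, had 163 and 155 TPM at IWP2 day 4, against 65.8 and 55.7 TPM in ES (log2 fold change 1.38 ± 0.36, adjusted p = 0.0047). SP8, a zinc finger factor of the anterior neural ridge, had 31.6 and 31.4 TPM on day 4 and 12.7 and 9.62 TPM in ES. OTX1 was not called, with 2.23 and 3.46 TPM in the day 4 libraries, against 1.19 and 0.841 TPM in the ES libraries (adjusted p = 0.0595). The telencephalic and hypothalamic members EMX2, DLX5, NKX2-1 and FOXD1 stayed under 1 TPM in all 4 libraries.

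Markers of more posterior levels were mostly under the filter, except for 4 midbrain and isthmus genes and 2 of the hindbrain list. Of 14 midbrain and isthmus genes 4 were tested and all 4 were called higher, against 28.7% of all genes tested. PAX2, FGF8 and GBX2 were under 1 TPM in both ES libraries and passed the filter only through day 4, which largely set their direction. IL17RD, an inhibitor of FGF signalling, was already present in ES, with 46.7 and 45.9 TPM at IWP2 day 4, against 12.3 and 18.6 TPM in ES (log2 fold change 1.55 ± 0.24, adjusted p = 3.9e-05). PAX2, a paired-box factor of optic stalk and isthmus, had 51.4 and 48.7 TPM on day 4 and 0 and 0.243 TPM in ES (log2 fold change 5.52 ± 0.37, adjusted p = 2.76e-09). FGF8, a ligand made by the isthmus and also by the anterior neural ridge, had 49.97 and 56.9 TPM in the day 4 libraries, against 0.654 and 0.665 TPM in the ES libraries (log2 fold change 5.03 ± 0.34, adjusted p = 2.75e-09). GBX2, which sets the hindbrain side of the isthmus, had 3.97 and 8.57 TPM at IWP2 day 4, against 0.245 and 0.320 TPM in ES. PAX2 and FGF8 are shared between the isthmus and anterior structures, and EN1 and EN2, which define midbrain and isthmus, were at 0 in both day 4 libraries. PAX5, LMX1B, WNT1, DMBX1 and CNPY1 were under 0.5 TPM in all 4 libraries. In the hindbrain and HOX list, 2 of 12 genes were tested. IRX3 was called higher, with 4.72 and 3.34 TPM on day 4 and 2.63 and 0.907 TPM in ES, and EGR2 was called lower, with 0.643 and 0.309 TPM in the day 4 libraries, against 2.88 and 1.01 TPM in the ES libraries. IRX3 lost its call without IWP2 day 4 library 1 or ES library 2 (adjusted p = 0.0989 and 0.204). EGR2 lost its call without IWP2 day 4 library 2 or ES library 1 (adjusted p = 0.127 and 0.292). HOXA2, HOXA3, HOXB1 and HOXB2 were under 0.2 TPM in each of the 4 libraries.

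SOX1 itself, the gene the series was built around, was barely expressed at this stage. SOX1 was at 0.907 and 0.990 TPM at IWP2 day 4 and at 0.264 and 0.177 TPM in ES, so it missed the filter and was not tested. Its level was 84.1 and 98.0 TPM in WT CT1.0 day 4 libraries, and 0.705 and 3.08 TPM in KO CT1.0 day 4 libraries, the condition in which SOX1 was abundant enough to show the knockout. In KO the level was 0.410 and 1.14 TPM at IWP2 day 4 and 0.0238 and 0.0510 TPM in ES. The other SOXB genes followed different courses. SOX2, which serves both pluripotent and neural cells, had 428 and 412 TPM at IWP2 day 4, against 202 and 169.8 TPM in ES (log2 fold change 1.18 ± 0.12, adjusted p = 4.26e-07). SOX21, a SOXB2 factor of neural progenitors, had 131 and 124 TPM on day 4 and 10.1 and 5.94 TPM in ES (log2 fold change 3.87 ± 0.26, adjusted p = 2.86e-09). SOX3 had 19.3 and 24.5 TPM in the day 4 libraries, against 20.5 and 16.8 TPM in the ES libraries, and its libraries overlapped between groups (adjusted p = 0.515). SOX14 was at 0 in all 4 libraries.

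Pan-neural progenitor genes rose across most of their list. Of 25 genes 23 were tested, 20 were called higher and 2 lower, with a median log2 fold change of 2.03, and 28.7% of all genes tested were called higher. CDH2, N-cadherin of the neuroepithelium, had 181 and 172 TPM at IWP2 day 4, against 19.9 and 22.1 TPM in ES (log2 fold change 3.01 ± 0.12, adjusted p = 3.95e-12). ZNF521, a zinc finger factor that promotes the neural fate of ES cells in the mouse, had 160.4 and 136 TPM on day 4 and 12.3 and 9.92 TPM in ES (log2 fold change 3.63 ± 0.14, adjusted p = 2.26e-12). MEIS2, a homeobox cofactor, had 21.9 and 31.6 TPM in the day 4 libraries, against 0.320 and 0.485 TPM in the ES libraries. CDH2 and ZNF521 were already present in ES at a lower level, and MEIS2 was under 1 TPM there. NR2F2, a COUP-TF nuclear receptor, had 19.9 and 12.2 TPM at IWP2 day 4, against 0.0520 and 0.0764 TPM in ES. DACH1, a cofactor of the eye and forebrain network, had 9.12 and 9.22 TPM on day 4 and 0.443 and 0.146 TPM in ES. NES, nestin, had 291 and 311 TPM in the day 4 libraries, against 75.3 and 79.8 TPM in the ES libraries. CRABP1 was called lower and is described with the retinoid genes. The zinc finger factor ZIC2 had 279.7 and 296 TPM at IWP2 day 4, against 177 and 162 TPM in ES. ZIC1 had 7.80 and 10.7 TPM on day 4 and 0.959 and 0.267 TPM in ES. Both were called higher on day 4. ZIC5 was not called (adjusted p = 0.923), with 31.8 and 33.8 TPM in the day 4 libraries, against 30.1 and 37.5 TPM in the ES libraries. SOX4 was called higher, with 72.8 and 71.6 TPM in the day 4 libraries against 60.8 and 55.1 TPM in ES libraries, a call that median-ratio scaling ended (adjusted p = 0.416). SOX4 lost its call without IWP2 day 4 library 2, IWP2 day 4 library 1, ES library 2 or ES library 1 (adjusted p = 0.119, 0.147, 0.228 and 0.0615).

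Of 14 listed neuronal genes 7 were tested, 3 were called higher and none lower, against 28.7% higher and 20.3% lower over all genes tested. MAP2, a microtubule protein with forms in progenitors and neurons, had 104 and 85.5 TPM at IWP2 day 4, against 8.20 and 8.10 TPM in ES (log2 fold change 3.38 ± 0.18, adjusted p = 2.28e-10). DCX, doublecortin of migrating neurons, had 6.67 and 5.38 TPM on day 4 and 2.87 and 1.78 TPM in ES. INA, an intermediate filament protein, had 27.4 and 29.7 TPM in the day 4 libraries, against 12.6 and 11.2 TPM in the ES libraries. DCX remained below 10 TPM in every library. TUBB3 was not called (adjusted p = 0.571), with 127 and 123 TPM at IWP2 day 4, against 100.2 and 112 TPM in ES. The proneural and neuronal genes NEUROG1, NEUROD1, NEUROG2, NHLH1, ELAVL4 and SNAP25 were under 1 TPM in all 4 libraries.

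**Figure D2:**
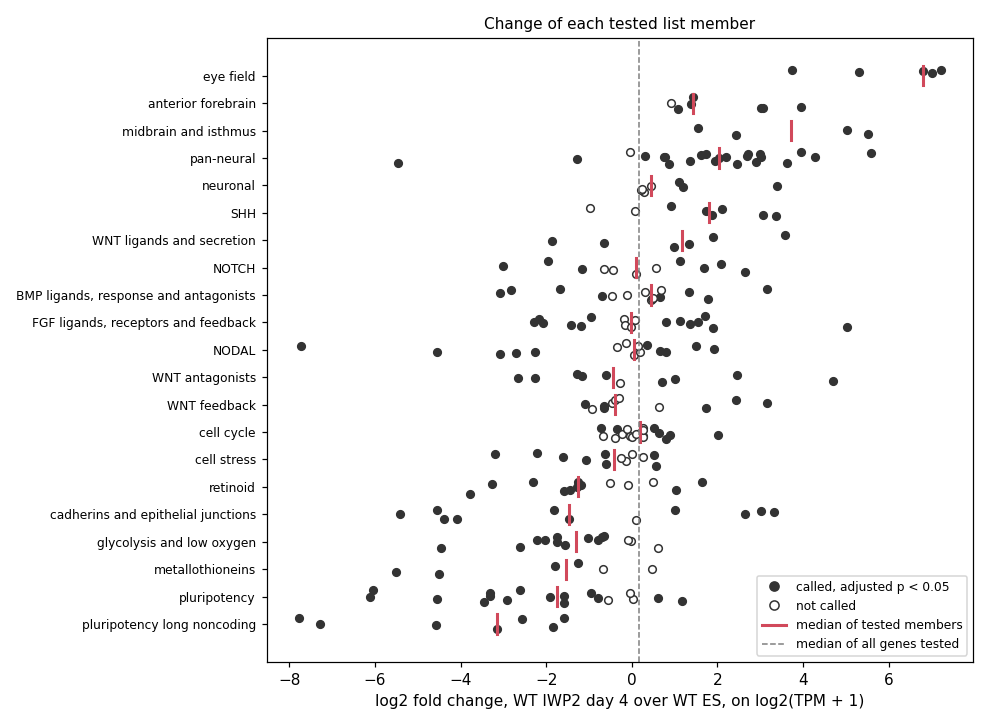
Change of every tested member of 21 gene lists. The x axis is the log2 fold change of WT IWP2 day 4 over WT ES on log2(TPM + 1), filled points are genes called at an adjusted p under 0.05, open points are genes not called, red bars are medians of the tested members and the dashed line is the median of all genes tested. Eye field members lie between 3.75 and 7.23, pluripotency long noncoding RNAs all lie below 0, and signalling lists spread to both sides.

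Most genes of the pluripotency network were lower by day 4. All 18 listed genes were tested, 13 were called lower and 2 higher, with a median log2 fold change of -1.75, and 20.3% of all genes tested were called lower. NANOG, a homeobox factor of the core network, had 0.147 and 0.120 TPM on day 4 and 20.9 and 31.2 TPM in ES (log2 fold change -4.55 ± 0.20, adjusted p = 1.53e-11). ZFP42, the REX1 marker of undifferentiated cells, had 0.938 and 0.615 TPM in the day 4 libraries, against 106 and 125 TPM in the ES libraries (log2 fold change -6.04 ± 0.18, adjusted p = 1.98e-13). PRDM14, a repressor of differentiation genes in human ES cells, had 2.38 and 1.98 TPM at IWP2 day 4, against 30.1 and 37.7 TPM in ES. NANOG and ZFP42 ended under 1 TPM on day 4. L1TD1, an RNA-binding protein derived from a transposon, had 24.4 and 20.5 TPM on day 4 and 187 and 285 TPM in ES. FOXD3, a forkhead factor of ES cells and neural crest, had 0.133 and 0 TPM in the day 4 libraries, against 9.45 and 9.70 TPM in the ES libraries. UTF1 was listed at 0 in both day 4 libraries and at 9.35 and 4.46 TPM in ES. Other members were lower and still abundant. DPPA4, a chromatin protein, had 144 and 147 TPM at IWP2 day 4, against 429 and 449 TPM in ES. DNMT3B, a de novo DNA methyltransferase, had 189 and 191 TPM on day 4 and 292 and 375 TPM in ES. LIN28A, an RNA-binding protein that blocks let-7 maturation, had 705 and 665 TPM in the day 4 libraries, against 687 and 660.2 TPM in the ES libraries (adjusted p = 0.854). LIN28B had 72.2 and 60.1 TPM at IWP2 day 4, against 66.1 and 70.4 TPM in ES (adjusted p = 0.7). Both LIN28 genes overlapped between groups, although median-ratio scaling called LIN28B lower (log2 fold change -0.25, adjusted p = 0.0358). The members called higher were SOX2 and SALL4, which had 107 and 104 TPM on day 4 and 69.4 and 68.4 TPM in ES.

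Of the 15 lowest genes of the same ranking, 6 are noncoding. LINC00678 had 1.24 and 0.778 TPM in the day 4 libraries, against 431 and 444 TPM in the ES libraries. ESRG, a long noncoding RNA of human pluripotent cells driven by an HERVH element, had 4.73 and 4.53 TPM at IWP2 day 4, against 958 and 793 TPM in ES. FOXD3-AS1, antisense to FOXD3, had 0 and 0.446 TPM on day 4 and 249.97 and 262 TPM in ES. Each was among the abundant ES transcripts and close to or under 5 TPM on day 4. LNCPRESS2 was listed at 0 in both day 4 libraries and at 117 and 105 TPM in ES, and LINC01194 at 0 in both day 4 libraries and at 162 and 126 TPM in ES. Of the list of 7 pluripotency long noncoding RNAs all were tested and all were called lower, with a median log2 fold change of -3.15. Of all genes tested, 20.3% were called lower. The coding members of this group included cell surface and secreted proteins. CD9, a tetraspanin used to mark human ES cells, had 1.09 and 1.23 TPM in the day 4 libraries, against 276 and 265 TPM in the ES libraries (log2 fold change -6.97 ± 0.21, adjusted p = 1.98e-13). RARRES2, the adipokine chemerin, had 2.07 and 1.45 TPM at IWP2 day 4, against 415 and 406 TPM in ES (log2 fold change -7.23 ± 0.34, adjusted p = 3.13e-11). IDO1, which breaks down tryptophan, had 0 and 0.233 TPM on day 4 and 113 and 98.4 TPM in ES. Each of these 3 was among the abundant ES transcripts. CXCL5, a chemokine, had 0.920 and 0.249 TPM in the day 4 libraries, against 111 and 120.0 TPM in the ES libraries. CNMD, chondromodulin, had 1.21 and 1.20 TPM at IWP2 day 4, against 148.2 and 156 TPM in ES. CLDN7, a tight junction claudin, had 0 and 0.228 TPM on day 4 and 97.8 and 82.0 TPM in ES. All of these were over 80 TPM in both ES libraries and under 2.1 TPM in both day 4 libraries.

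The microRNA cluster that marks human pluripotent cells was the sixth noncoding entry. MIR302A, a hairpin row, was listed at 0 in both day 4 libraries and at 94.4 and 83.6 TPM in ES. It lies with MIR302B, MIR302C, MIR302D and MIR367 on the minus strand of chromosome 4, inside the plus-strand gene LARP7, and the other cluster rows were added after their values were seen. The mature 3p strands of RefSeq (GRCh38.p14), with bases 2 to 8, the seed that pairs with targets, in capitals, show one seed in all 4 miR-302 members and another in miR-367:
miR-302a-3p (chr4:112648186-112648208): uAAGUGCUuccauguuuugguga
miR-302b-3p (chr4:112648489-112648511): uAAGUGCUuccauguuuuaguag
miR-302c-3p (chr4:112648366-112648388): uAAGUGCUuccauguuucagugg
miR-302d-3p (chr4:112648006-112648028): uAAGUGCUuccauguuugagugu
miR-367-3p (chr4:112647877-112647898): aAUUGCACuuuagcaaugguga
These libraries hold poly(A) RNA and do not measure mature microRNAs. What they hold is the host transcript, MIR302CHG, found by its gene ID under the name RP11-148B6.1. The host had 262 and 307 TPM in the day 4 libraries, against 1593 and 1775 TPM in the ES libraries (log2 fold change -2.56 ± 0.44, adjusted p = 0.000126). Among the hairpin rows, MIR302D was listed at 0 in both day 4 libraries and at 41.6 and 66.9 TPM in ES. MIR302C was at 3.24 and 0 TPM in the day 4 libraries and 117 and 64.1 TPM in the ES libraries. MIR367 was at 0 and 5.79 TPM in the day 4 libraries and 161 and 162 TPM in the ES libraries. MIR302B, at 0 in both day 4 libraries and at 13.4 and 0 TPM in ES, did not reach the filter. The hairpin rows were at or near 0 on day 4 while the host transcript was still abundant, and the host was at 4.84 and 5.04 TPM in WT IWP2 day 8 libraries. LARP7, on the opposite strand, had 133 and 144 TPM at IWP2 day 4, against 198 and 199 TPM in ES. LARP7 lost its call without IWP2 day 4 library 1, ES library 2 or ES library 1 (adjusted p = 0.0936, 0.0606 and 0.0607). Hairpin rows are short and hold few fragments, and reads of LARP7 and of the cluster cannot be told apart where the strand was not used.

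NODAL signalling genes were called in both directions. Of 17 listed genes 15 were tested, 5 were called lower and 5 higher, against 20.3% lower and 28.7% higher over all genes tested. The lower ones were the co-receptor TDGF1, the transcription partner FOXH1, the ligand GDF3 and the feedback inhibitors LEFTY1 and LEFTY2. FOXH1 had 1.45 and 2.55 TPM on day 4 and 68.6 and 67.0 TPM in ES (log2 fold change -4.55 ± 0.37, adjusted p = 3.21e-08). GDF3 was listed at 0 in both day 4 libraries and at 6.72 and 8.33 TPM in ES. LEFTY1 was listed at 0 in both day 4 libraries and at 3.08 and 9.37 TPM in ES. LEFTY2 had 0.0424 and 0 TPM in the day 4 libraries, against 2.32 and 6.24 TPM in the ES libraries. All of these were under 3 TPM in both day 4 libraries. The 5 genes called higher were the protease PCSK5, the effector SMAD3, the activin-binding proteins FST and FSTL3, and the receptor ACVR1B. SMAD3 had 23.5 and 23.6 TPM at IWP2 day 4, against 9.35 and 6.28 TPM in ES (log2 fold change 1.499 ± 0.18, adjusted p = 3.23e-06). PCSK5 had 24.2 and 20.8 TPM on day 4 and 5.10 and 5.36 TPM in ES. NODAL itself was near 1 TPM in each library, with 1.05 and 1.33 TPM in the day 4 libraries, against 0.672 and 1.18 TPM in the ES libraries (adjusted p = 0.541). FST lost its call without IWP2 day 4 library 1 or ES library 1 (adjusted p = 0.067 and 0.118). ACVR1B lost its call without IWP2 day 4 library 2, IWP2 day 4 library 1 or ES library 1 (adjusted p = 0.179, 0.0528 and 0.299). Median-ratio scaling also ended the call of ACVR1B (adjusted p = 0.255).

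Of the WNT ligand genes WNT5A, WNT5B and WNT8B were called higher on day 4 and WNT4 lower. Of 14 genes for ligands and their secretion 6 were tested, 4 were called higher and 2 lower, and 8 were under 1 TPM in both day 4 libraries. Over all genes tested, 28.7% were called higher and 20.3% lower. PORCN, the enzyme that IWP2 inhibits, had 12.4 and 12.6 TPM at IWP2 day 4, against 24.2 and 16.7 TPM in ES (log2 fold change -0.64 ± 0.21, adjusted p = 0.0178). WLS, the carrier that takes lipidated WNT to the cell surface, had 21.8 and 12.5 TPM on day 4 and 3.31 and 4.07 TPM in ES (log2 fold change 1.91 ± 0.30, adjusted p = 4.93e-05). WNT5B had 34.7 and 36.1 TPM in the day 4 libraries, against 2.996 and 1.33 TPM in the ES libraries (log2 fold change 3.57 ± 0.28, adjusted p = 1.99e-08). WNT5A had 10.52 and 6.92 TPM at IWP2 day 4, against 2.99 and 2.56 TPM in ES. WNT5A and WNT5B, which act mostly outside the beta-catenin route, were the most abundant WNT transcripts measured on day 4. WNT8B, a forebrain WNT gene, had 2.58 and 2.69 TPM on day 4 and 0.902 and 0.754 TPM in ES. WNT4 had 0.0855 and 0.104 TPM in the day 4 libraries, against 3.81 and 2.30 TPM in the ES libraries. PORCN lost its call without IWP2 day 4 library 2, IWP2 day 4 library 1 or ES library 1 (adjusted p = 0.0621, 0.0685 and 0.217). WNT4 lost its call without ES library 1 (adjusted p = 0.0531). WNT3A, WNT6, WNT7A, WNT7B and WNT11 were under 0.3 TPM in all 4 libraries.

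The most abundant secreted WNT antagonists, SFRP1 and SFRP2, exceeded every listed WNT ligand in TPM in both groups. Of 12 antagonist genes 10 were tested, 4 were called higher and 5 lower, against 28.7% higher and 20.3% lower over all genes tested. SFRP1 had 632 and 589 TPM at IWP2 day 4, against 391 and 353 TPM in ES (log2 fold change 0.71 ± 0.14, adjusted p = 0.000367). SFRP2 had 407 and 402 TPM on day 4 and 179.7 and 222 TPM in ES (log2 fold change 1.01 ± 0.22, adjusted p = 0.00101). FRZB, the SFRP3 protein, had 133 and 128 TPM in the day 4 libraries, against 3.83 and 4.38 TPM in the ES libraries (log2 fold change 4.69 ± 0.12, adjusted p = 4.1e-14). SHISA2, which retains Frizzled and FGF receptors inside the cell, had 49.1 and 44.1 TPM at IWP2 day 4, against 6.62 and 8.71 TPM in ES (log2 fold change 2.47 ± 0.32, adjusted p = 6.55e-06). FRZB was above PAX6 in TPM on day 4. Of the antagonists called lower, SHISA3 had 0.168 and 0.0524 TPM on day 4 and 6.69 and 5.39 TPM in ES. SFRP5 had 0.0940 and 0.0469 TPM in the day 4 libraries, against 5.19 and 3.24 TPM in the ES libraries.

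Genes of the beta-catenin feedback set were called in both directions. Of 15 genes 11 were tested, 3 were called higher and 3 lower, with a median log2 fold change of -0.40. These shares were near the 28.7% higher and 20.3% lower of all genes tested. AXIN2, a negative feedback gene of the pathway, had 9.39 and 8.38 TPM at IWP2 day 4, against 16.8 and 12.3 TPM in ES (log2 fold change -0.64 ± 0.19, adjusted p = 0.0113). ZNRF3, an E3 ligase that removes Frizzled, had 6.81 and 6.67 TPM on day 4 and 11.4 and 10.98 TPM in ES (log2 fold change -0.65 ± 0.15, adjusted p = 0.00172). NKD2, an inhibitor of Dishevelled, had 3.38 and 7.66 TPM in the day 4 libraries, against 10.9 and 13.6 TPM in the ES libraries. These 3 genes were lower on day 4 by less than 2 on the log2 scale. LEF1, a DNA-binding partner of beta-catenin, had 11.2 and 13.2 TPM at IWP2 day 4, against 0.444 and 0.522 TPM in ES (log2 fold change 3.15 ± 0.24, adjusted p = 1.3e-08). LGR5, an R-spondin receptor, had 6.85 and 4.46 TPM on day 4 and 0.279 and 0.135 TPM in ES. TNFRSF19 had 6.78 and 4.43 TPM in the day 4 libraries, against 0.913 and 0.976 TPM in the ES libraries. LEF1, LGR5 and TNFRSF19 were under 1 TPM in both ES libraries and passed the filter only through day 4, which largely set their direction. The 3 genes called lower were over 10 TPM in ES. AXIN2 lost its call without IWP2 day 4 library 2 or ES library 1 (adjusted p = 0.074 and 0.145). NKD2 lost its call without IWP2 day 4 library 1 or ES library 2 (adjusted p = 0.252 and 0.109). DKK1, DKK4 and NOTUM were under 1 TPM in every library. Median-ratio scaling raised the count of lower genes to 5.

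FGF genes were called in both directions at the level of ligand, receptor and feedback. Of 20 genes 17 were tested, 7 were called higher and 6 lower, against 28.7% higher and 20.3% lower over all genes tested. FGF2, the factor used to maintain human ES cells, had 18.2 and 17.0 TPM at IWP2 day 4, against 42.1 and 40.6 TPM in ES (log2 fold change -1.18 ± 0.12, adjusted p = 3.85e-07), while FGF8 gave the largest increase in the list. FGFR1, the receptor with the highest level, had 836 and 854 TPM on day 4 and 523 and 447 TPM in ES (log2 fold change 0.80 ± 0.13, adjusted p = 6.42e-05). FGFR4 had 13.5 and 17.4 TPM in the day 4 libraries, against 65.7 and 80.0 TPM in the ES libraries (log2 fold change -2.17 ± 0.22, adjusted p = 4.38e-07). FGFR2 and FGFR3 were not called (adjusted p = 0.273 and 0.783), although median-ratio scaling called FGFR2 lower (adjusted p = 0.0131). Among feedback and target genes, the Sprouty inhibitor SPRY1 had 76.6 and 71.8 TPM at IWP2 day 4, against 21.6 and 22.3 TPM in ES. SPRY2 had 55.8 and 55.5 TPM on day 4 and 18.9 and 23.6 TPM in ES. The ETS factor ETV5 had 55.0 and 68.2 TPM in the day 4 libraries, against 15.5 and 16.0 TPM in the ES libraries. These 3 were called higher. SPRY4 had 23.6 and 21.3 TPM at IWP2 day 4, against 55.9 and 67.2 TPM in ES. ETV4 had 15.3 and 16.8 TPM on day 4 and 70.3 and 95.0 TPM in ES. Sprouty and ETS members, which are both known as FGF targets, were thus called in both directions. DUSP6, an ERK phosphatase, was called lower, with 50.6 and 46.9 TPM in the day 4 libraries, against 71.9 and 124 TPM in the ES libraries. DUSP6 lost its call without IWP2 day 4 library 2, IWP2 day 4 library 1 or ES library 2 (adjusted p = 0.143, 0.103 and 0.332).

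Of 18 BMP genes 15 were tested, 4 were called higher and 4 lower, shares near the 28.7% higher and 20.3% lower of all genes tested. ID1, a direct BMP target, had 7.40 and 7.62 TPM at IWP2 day 4, against 79.1 and 62.8 TPM in ES (log2 fold change -3.07 ± 0.28, adjusted p = 1.19e-07). BAMBI, a decoy receptor, had 0.531 and 0.428 TPM on day 4 and 9.01 and 9.997 TPM in ES (log2 fold change -2.83 ± 0.27, adjusted p = 1.78e-07). ID2 had 263 and 273 TPM in the day 4 libraries, against 118 and 93.0 TPM in the ES libraries (log2 fold change 1.35 ± 0.23, adjusted p = 0.000136). ID3 had 86.1 and 77.2 TPM at IWP2 day 4, against 72.2 and 107 TPM in ES (adjusted p = 0.768). Of the ID genes, ID1 was thus called lower and ID2 higher, and the ID3 libraries overlapped. GREM1, a BMP antagonist, had 9.11 and 9.13 TPM on day 4 and 0.0814 and 0.194 TPM in ES. The ligand gene BMP7 had 29.4 and 23.7 TPM in the day 4 libraries, against 9.95 and 4.84 TPM in the ES libraries. NOG and CHRD were under 2 TPM in all 4 libraries.

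Genes that receive hedgehog signals rose, and the ligand gene SHH was near 0. Of 11 genes 8 were tested, 6 were called higher and none lower, against 28.7% higher and 20.3% lower over all genes tested. GAS1, a surface protein that helps SHH bind, had 42.5 and 43.0 TPM at IWP2 day 4, against 4.07 and 2.54 TPM in ES. BOC, another SHH co-receptor, had 88.9 and 96.9 TPM on day 4 and 9.33 and 11.3 TPM in ES. GLI2, the main activator of the pathway, had 205 and 216 TPM in the day 4 libraries, against 69.9 and 56.4 TPM in the ES libraries (log2 fold change 1.73 ± 0.21, adjusted p = 2.99e-06). All 3 were called higher, with no overlap between groups, as was found for 72.9% of all genes tested. GLI3, which acts mostly as a repressor, had 53.9 and 44.6 TPM at IWP2 day 4, against 9.57 and 11.9 TPM in ES (log2 fold change 2.10 ± 0.14, adjusted p = 3.07e-09). PTCH1, the SHH receptor and a target gene, had 55.9 and 63.4 TPM on day 4 and 16.6 and 14.8 TPM in ES (log2 fold change 1.86 ± 0.29, adjusted p = 4.81e-05). GLI1, a target gene often used as a readout of the pathway, had 9.13 and 12.8 TPM in the day 4 libraries, against 20.2 and 24.7 TPM in the ES libraries. It was not called (adjusted p = 0.0745), although median-ratio scaling called it lower (adjusted p = 0.0327). SHH, FOXA2 and NKX2-2 were under 0.3 TPM in every library. Of 12 NOTCH genes 11 were tested, 4 were called higher and 3 lower, with a median log2 fold change of 0.09, near that of all genes tested. HES1, a NOTCH effector, had 44.7 and 47.98 TPM at IWP2 day 4, against 11.2 and 9.11 TPM in ES. DLL1, a ligand, had 31.1 and 27.3 TPM on day 4 and 7.16 and 1.87 TPM in ES. NOTCH2, a receptor, had 69.7 and 72.6 TPM in the day 4 libraries, against 21.3 and 21.9 TPM in the ES libraries. These 3 were called higher. HEY2 had 0.314 and 0.187 TPM at IWP2 day 4, against 9.59 and 8.66 TPM in ES (log2 fold change -3.02 ± 0.18, adjusted p = 9.22e-10). HES5, a further effector, was under 0.5 TPM in each library.

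Retinoid genes were mostly lower on day 4. Of 14 genes 13 were tested, 8 were called lower and 2 higher, with a median log2 fold change of -1.25. Over all genes tested, 20.3% were called lower and 28.7% higher. CYP26A1, the enzyme that degrades retinoic acid and answers to it, had 0.702 and 0.689 TPM on day 4 and 22.3 and 22.6 TPM in ES (log2 fold change -3.79 ± 0.54, adjusted p = 2.11e-05). DHRS3, which returns retinal to retinol, had 1.05 and 0.301 TPM in the day 4 libraries, against 15.8 and 13.8 TPM in the ES libraries (log2 fold change -3.27 ± 0.26, adjusted p = 2.18e-08). RARG, a retinoic acid receptor, had 16.5 and 16.6 TPM at IWP2 day 4, against 46.0 and 47.5 TPM in ES. The enzyme and receptor genes named so far were lower on day 4. CRABP1, a cytoplasmic retinoic acid carrier, had 125 and 134 TPM on day 4 and 338 and 290.2 TPM in ES. Its relative CRABP2 had 374 and 369.6 TPM in the day 4 libraries, against 217 and 149 TPM in the ES libraries (log2 fold change 1.04 ± 0.18, adjusted p = 0.000125). The carrier genes were thus called in opposite directions. Genes for enzymes that make retinoic acid were under 7 TPM in all 4 libraries. ALDH1A2 had 3.98 and 2.71 TPM at IWP2 day 4, against 0.467 and 0.316 TPM in ES. ALDH1A3 had 0 and 0.0540 TPM on day 4 and 6.28 and 2.56 TPM in ES.

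E-cadherin and other epithelial genes fell, while N-cadherin and 3 further cadherin genes rose. Of 12 listed cadherin and junction genes 11 were tested, 6 were called lower and 4 higher. Over all genes tested, 20.3% were called lower and 28.7% higher. CDH1, E-cadherin, had 2.72 and 0.396 TPM in the day 4 libraries, against 98.0 and 94.0 TPM in the ES libraries (log2 fold change -5.41 ± 0.39, adjusted p = 6.82e-09). EPCAM, an epithelial adhesion protein, had 5.395 and 5.99 TPM at IWP2 day 4, against 151 and 159 TPM in ES (log2 fold change -4.54 ± 0.20, adjusted p = 2.17e-11). ESRP1, which directs epithelial splicing, had 3.61 and 2.75 TPM on day 4 and 82.7 and 89.3 TPM in ES (log2 fold change -4.39 ± 0.45, adjusted p = 5.48e-07). CDH3 had 4.96 and 4.18 TPM in the day 4 libraries, against 93.0 and 91.9 TPM in the ES libraries. All 4 fell by more than 4 on the log2 scale, and each was under 6 TPM in both day 4 libraries. Alongside CDH2, the cadherins CDH11 and CDH6 were called higher, the first with 61.9 and 61.1 TPM at IWP2 day 4, against 12.1 and 6.597 TPM in ES. CDH6 had 19.0 and 16.4 TPM on day 4 and 0.784 and 0.950 TPM in ES. TJP1, the ZO-1 tight junction scaffold, was not called (adjusted p = 0.491), with 59.2 and 56.6 TPM in the day 4 libraries, against 48.2 and 60.9 TPM in the ES libraries. ZEB2, a repressor of E-cadherin that was looked up after its values were seen, had 45.3 and 47.2 TPM at IWP2 day 4, against 0.990 and 0.946 TPM in ES (log2 fold change 4.59 ± 0.14, adjusted p = 1.98e-13).

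Marker lists of other cell types were mostly low on day 4, and single members were higher than in ES. Over all genes tested, 28.7% were called higher and 20.3% lower. Of 12 mesendoderm genes 11 were under 1 TPM in both day 4 libraries, and the defining genes EOMES, MIXL1, GATA4 and SOX17 were at 0. The list summed to 2.51 to 2.71 TPM at IWP2 day 4, against 4.51 to 7.58 TPM in ES. Surface ectoderm genes summed to 129 to 134 TPM at IWP2 day 4, against 426 to 446 TPM in ES. In that list 10 of 14 genes were under 1 TPM in both day 4 libraries, GATA3, KRT5 and KRT14 were at 0, and of 7 genes tested 6 were called lower and 1, DLX3, higher, with 2.86 and 1.54 TPM on day 4 and 0.482 and 0.149 TPM in ES. Neural crest genes summed to 36.9 to 40.4 TPM at IWP2 day 4, against 44.6 to 46.0 TPM in ES. None of the 10 was at 0 in both day 4 libraries, 4 were under 1 TPM in both, and of 7 tested 4 were called higher and 3 lower. SOX10, which defines migrating crest, was at 0 and 0.141 TPM in the day 4 libraries and 3.12 and 1.77 TPM in the ES libraries, and SOX9, which neural progenitors also use, was at 10.46 and 11.9 TPM in the day 4 libraries and 4.51 and 3.56 TPM in the ES libraries. Of the other crest members called higher, the neurotrophin receptor NGFR had 19.0 and 21.2 TPM in the day 4 libraries, against 6.02 and 5.22 TPM in the ES libraries (log2 fold change 1.67 ± 0.28, adjusted p = 9.25e-05). SNAI2, a repressor of E-cadherin, had 1.72 and 2.26 TPM at IWP2 day 4, against 0.368 and 0.406 TPM in ES, and PAX3, a paired-box factor of dorsal neural tube and crest, had 3.75 and 1.96 TPM on day 4 and 0.860 and 0.884 TPM in ES. SNAI2 lost its call without IWP2 day 4 library 2 or ES library 1 (adjusted p = 0.0802 and 0.0551). PAX3 lost its call without IWP2 day 4 library 1 (adjusted p = 0.115). ETS1, EDNRB and SOX10 were called lower (adjusted p = 4.9e-08, 0.00488 and 0.00493), although SOX10 lost its call without ES library 1 (adjusted p = 0.0544), and the part of such cells in the results was not tested. Amnion and trophoblast genes summed to 96.5 to 101.3 TPM at IWP2 day 4, against 39.6 to 49.9 TPM in ES. That sum was carried by IGFBP3, a secreted binding protein of insulin-like growth factors with 94.5 and 98.9 TPM in the day 4 libraries, against 7.35 and 5.86 TPM in the ES libraries, and 6 of 8 genes were under 1 TPM in both day 4 libraries, with ISL1, HAND1 and CGB5 at 0. Fibroblast genes summed to 108 to 120.3 TPM at IWP2 day 4, against 709.8 to 796 TPM in ES. THY1, a surface protein that human ES cells also carry, led that sum with 94.6 and 105 TPM at IWP2 day 4, against 685 and 622 TPM in ES, 4 of 8 genes were under 1 TPM in both day 4 libraries, and POSTN was at 0.

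The imprinted domain of DLK1 was expressed on day 4 from both of its tested genes. MEG3, the maternally expressed noncoding RNA of the DLK1 domain, had 9.06 and 8.05 TPM on day 4 and 0.0498 and 0.0488 TPM in ES (log2 fold change 3.18 ± 0.27, adjusted p = 4.85e-08). No other of the 7 listed genes of the domain passed the filter, and MEG3 was far below DLK1 in TPM. MEG3 was under 1 TPM in both ES libraries, so it passed the filter only through the day 4 libraries. Among DNA methylation enzymes, UHRF1, which guides maintenance methylation, had 67.0 and 70.3 TPM in the day 4 libraries, against 18.0 and 26.9 TPM in the ES libraries (log2 fold change 1.60 ± 0.22, adjusted p = 1.21e-05). DNMT1, the maintenance methyltransferase, had 142 and 153 TPM at IWP2 day 4, against 78.0 and 88.2 TPM in ES (log2 fold change 0.82 ± 0.13, adjusted p = 6.34e-05). Of 8 methylation enzymes 7 were tested, 4 were called higher and 2 lower, the lower ones being DNMT3B and TET1. Over all genes tested, 28.7% were called higher and 20.3% lower. TET1 lost its call without IWP2 day 4 library 2, ES library 2 or ES library 1 (adjusted p = 0.232, 0.0827 and 0.0724). TET2 lost its call without IWP2 day 4 library 2, IWP2 day 4 library 1, ES library 2 or ES library 1 (adjusted p = 0.0624, 0.13, 0.13 and 0.0563). TET2, called higher with 3.86 and 3.51 TPM on day 4 and 2.45 and 2.16 TPM in ES, also lost its call with median-ratio scaling (adjusted p = 0.132).

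Glycolytic and low-oxygen genes were lower on day 4. Of 15 listed genes 14 were tested, 11 were called lower and none higher, with a median log2 fold change of -1.29. Over all genes tested, 20.3% were called lower and 28.7% higher. LDHA, which makes lactate from pyruvate, had 35.04 and 33.0 TPM in the day 4 libraries, against 892 and 659 TPM in the ES libraries (log2 fold change -4.46 ± 0.29, adjusted p = 1.95e-09). HK1, a hexokinase, had 25.4 and 27.7 TPM at IWP2 day 4, against 125 and 129 TPM in ES (log2 fold change -2.21 ± 0.10, adjusted p = 3.84e-11). ALDOC, an aldolase, had 17.2 and 13.4 TPM on day 4 and 106 and 89.7 TPM in ES (log2 fold change -2.60 ± 0.23, adjusted p = 1.02e-07). For each of these genes both day 4 libraries lay below both ES libraries. SLC2A3, a glucose transporter, had 81.6 and 79.1 TPM in the day 4 libraries, against 253 and 227 TPM in the ES libraries. PGK1, a glycolytic kinase, had 161 and 163 TPM at IWP2 day 4, against 714 and 411 TPM in ES. BNIP3, a mitophagy receptor induced by low oxygen, had 22.4 and 27.3 TPM on day 4 and 143 and 75.3 TPM in ES. ES library 1 was above ES library 2 for LDHA, PGK1 and BNIP3, and both were above the day 4 libraries. Without ES library 1, 9 of the 14 genes were called lower. SLC2A1, PFKFB3 and NDRG1 were not called by limma, with adjusted p of 0.837, 0.0684 and 0.982. CA9, a strongly oxygen-dependent gene, was under 2 TPM in all 4 libraries.

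Promoters of 3 genes called lower in WT are shown, chosen after it was known that each holds ACGTG, the core of the element that hypoxia-inducible factors are known to bind. The windows are the 250 bases before the RefSeq start (GRCh38.p14), 5′ to 3′ on the gene's strand, with ACGTG or its reverse complement CACGT in capitals:
LDHA (chr11:18394313-18394562, plus strand): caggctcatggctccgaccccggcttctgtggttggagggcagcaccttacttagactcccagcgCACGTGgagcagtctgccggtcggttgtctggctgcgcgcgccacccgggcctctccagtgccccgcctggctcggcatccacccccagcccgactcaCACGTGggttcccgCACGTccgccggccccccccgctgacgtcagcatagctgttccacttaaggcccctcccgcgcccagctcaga
PGK1 (chrX:78103998-78104247, plus strand): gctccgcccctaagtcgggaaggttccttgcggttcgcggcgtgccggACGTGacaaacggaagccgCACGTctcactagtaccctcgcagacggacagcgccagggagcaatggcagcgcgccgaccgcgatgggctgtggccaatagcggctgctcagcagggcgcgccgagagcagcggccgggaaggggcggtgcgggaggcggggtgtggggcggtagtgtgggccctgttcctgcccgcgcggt
BNIP3 (chr10:131981924-131982173, minus strand): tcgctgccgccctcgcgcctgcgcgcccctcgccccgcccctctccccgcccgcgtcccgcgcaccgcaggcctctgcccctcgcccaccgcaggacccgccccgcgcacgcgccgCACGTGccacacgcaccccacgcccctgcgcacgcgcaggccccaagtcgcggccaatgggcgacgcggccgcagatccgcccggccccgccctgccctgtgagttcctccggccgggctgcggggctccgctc
LDHA has 2 RefSeq windows, and the first in the table is shown. The core occurs on either strand in 18.5% of all 35116 promoter windows of this length, and in 10 of the 22 windows of the list, which belong to 12 genes. CACGTG, which is its own reverse complement, contains both forms and was counted once for each. The list was drawn up from glycolysis and low-oxygen genes, so its share is no result of these data. Its genes with a match include PFKFB3, which was not called. A match is only a run of letters, and binding was not measured.

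Metallothioneins, zinc-binding proteins that answer to metal and stress, were lower on day 4 and differed between the ES libraries. Of 7 genes 6 were tested, 4 were called lower and none higher, against 20.3% lower and 28.7% higher over all genes tested. MT1G had 3.60 and 2.01 TPM in the day 4 libraries, against 301 and 92.7 TPM in the ES libraries (log2 fold change -5.50 ± 0.52, adjusted p = 1.93e-07). MT1H had 0.226 and 2.13 TPM at IWP2 day 4, against 66.4 and 28.5 TPM in ES (log2 fold change -4.51 ± 0.42, adjusted p = 1.76e-07). MT1X had 61.3 and 77.5 TPM on day 4 and 267 and 105 TPM in ES (log2 fold change -1.27 ± 0.39, adjusted p = 0.0129). ES library 1 was above ES library 2 for each of them. The part that the state of one ES library had in these values was not tested. Without ES library 1, 3 of the 6 genes were called lower. MT1X lost its call without IWP2 day 4 library 1 or ES library 1 (adjusted p = 0.0863 and 0.254). MT1F was not called (adjusted p = 0.313), with 32.3 and 30.2 TPM in the day 4 libraries, against 29.9 and 16.5 TPM in the ES libraries.

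**Figure D3:**
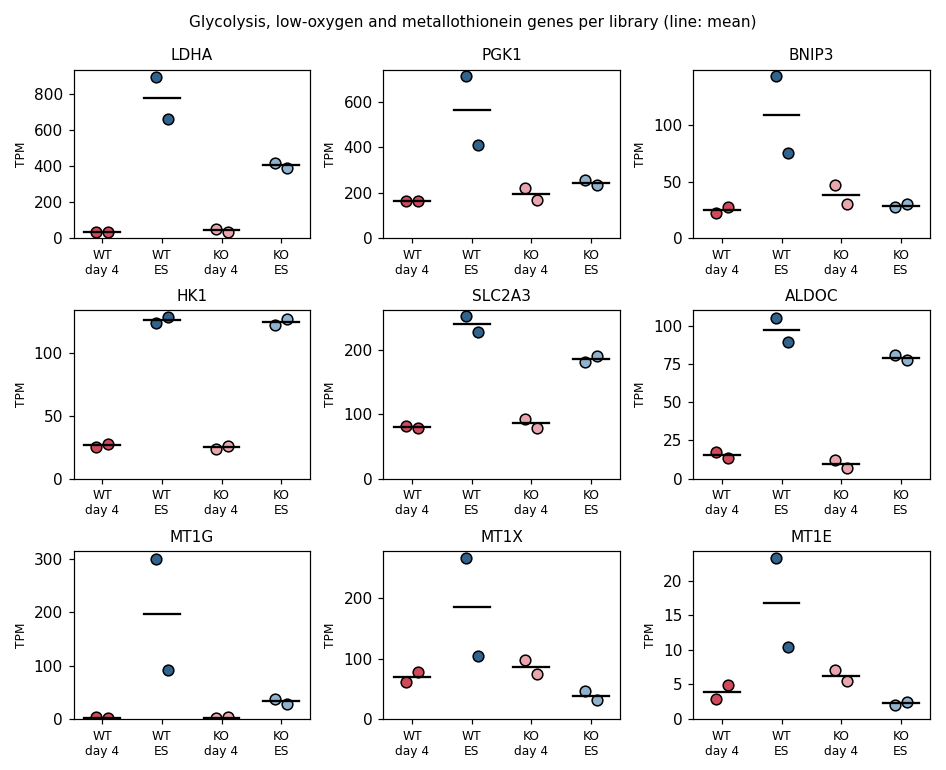
TPM of 6 glycolytic and low-oxygen genes and 3 metallothioneins in each library of WT IWP2 day 4, WT ES, KO IWP2 day 4 and KO ES. Each point is a library, black bars are means of 2 libraries and the y axis starts at 0. WT ES stands above both KO ES libraries for PGK1, BNIP3, MT1G, MT1X and MT1E, while HK1 is at the same level in WT ES and KO ES.

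Of 12 cell stress genes 6 were called lower and 2 higher, against 20.3% lower and 28.7% higher over all genes tested. Without ES library 2, or without day 4 library 1, 4 of them were called lower. ATF4, the transcription factor of the integrated stress response, had 262 and 267 TPM at IWP2 day 4, against 513 and 600.0 TPM in ES (log2 fold change -1.06 ± 0.11, adjusted p = 5.82e-07). Its target ASNS, asparagine synthetase, had 20.3 and 18.5 TPM on day 4 and 98.3 and 89.5 TPM in ES. CHAC1, a target that degrades glutathione, had 2.04 and 3.30 TPM in the day 4 libraries, against 29.8 and 34.8 TPM in the ES libraries. The factor and both targets were thus lower on day 4. Another target, TRIB3, had 2.08 and 1.73 TPM at IWP2 day 4, against 6.66 and 9.23 TPM in ES. DDIT3 had 4.42 and 3.80 TPM on day 4 and 4.59 and 4.64 TPM in ES (adjusted p = 0.66). Of 19 cell cycle genes 5 were called higher and 2 lower, and 12 were not called. CCNE2, a G1/S cyclin, had 16.6 and 14.3 TPM in the day 4 libraries, against 3.34 and 2.83 TPM in the ES libraries (log2 fold change 2.01 ± 0.21, adjusted p = 7.32e-07). BUB1, a spindle checkpoint kinase, had 65.8 and 64.6 TPM at IWP2 day 4, against 108 and 109.7 TPM in ES (log2 fold change -0.73 ± 0.11, adjusted p = 3.15e-05). CCNB1 and PCNA were not called by limma (adjusted p = 0.716 and 0.146), and median-ratio scaling raised the count of lower cell cycle genes to 5.

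The same step was measured in SOX1-/- lines, with no library in common. The filter on the WT IWP2 day 4 and WT ES libraries was kept for KO and for the KO minus WT difference. Genes under that filter but expressed in KO were therefore not tested, and the counts below leave them out. Between KO IWP2 day 4 and KO ES, 9568 genes (46.7%) were called. Of these, 7205 were called in the same direction in WT, which is 75.3% of the KO calls and 71.8% of the WT calls, and 27 were called in opposite directions. All 15 highest and all 15 lowest genes of WT were called in the same direction in KO. RAX had 136 and 178 TPM in KO IWP2 day 4, against 0.0407 and 0.874 TPM in KO ES, and LHX2 had 125 and 180.2 TPM in KO IWP2 day 4, against 0.104 and 0.111 TPM in KO ES. POU5F1 had 31.1 and 21.4 TPM in KO IWP2 day 4, against 2475 and 2532 TPM in KO ES. As in WT, no day 4 library of these genes overlapped an ES library. The difference of the day 4 change, KO minus WT, was called for 54 genes (0.264%), 37 with a higher (0.181%) and 17 with a lower (0.083%) change in KO. None of the 30 genes at the ends of the WT ranking was among them, and the smallest limma adjusted p among them was 0.0586, for GREB1L. In KO, 5 of 5 eye field genes and 20 of 23 pan-neural genes were called higher, and 14 of 18 pluripotency genes were called lower. Over all genes tested in KO, 26.4% were called higher and 20.3% lower.

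Among the genes whose day 4 change differed between KO and WT were low-oxygen and metallothionein genes. BNIP3 had 46.7 and 30.2 TPM in KO IWP2 day 4 and 27.4 and 29.7 TPM in KO ES, against 22.4 and 27.3 TPM in WT IWP2 day 4 and 143 and 75.3 TPM in WT ES. The KO minus WT difference of its changes was 2.41 on the log2 scale (SE 0.34, adjusted p = 0.00416), and this call was kept when any 1 of the 8 libraries was left out. MT1E had 7.07 and 5.52 TPM in KO IWP2 day 4 and 1.99 and 2.51 TPM in KO ES, against 2.91 and 4.94 TPM in WT IWP2 day 4 and 23.3 and 10.4 TPM in WT ES. The difference of its changes was 2.95 (adjusted p = 0.0457), and without WT ES library 1 the adjusted p was 0.214. PGK1, singled out after its values were seen, had 218 and 169 TPM in KO IWP2 day 4 and 257 and 231 TPM in KO ES, against 161 and 163 TPM in WT IWP2 day 4 and 714 and 411 TPM in WT ES (difference 1.39, adjusted p = 0.0213). For all 3 genes the WT ES libraries were the highest, and the part that those libraries had in the difference was not tested. In KO the low-oxygen list had 7 of 14 genes called lower, and the metallothionein list 3 higher and 2 lower of 6. Over all genes tested in KO, 26.4% were called higher and 20.3% lower. CRNDE, a long noncoding RNA looked up after its values were seen, had 115 and 109 TPM in KO IWP2 day 4 and 12.3 and 15.4 TPM in KO ES, against 116 and 105 TPM in WT IWP2 day 4 and 32.0 and 25.7 TPM in WT ES (difference 1.03, adjusted p = 0.0131). Here the KO ES libraries were the lowest. Leaving out 1 library took the limma adjusted p to 0.118 for PGK1, without KO IWP2 day 4 library 26, and to 0.11 for CRNDE, without WT ES library 1. In the other direction, SRR, serine racemase, had 18.7 and 29.4 TPM in KO IWP2 day 4 and 25.3 and 31.8 TPM in KO ES, against 59.9 and 44.0 TPM in WT IWP2 day 4 and 15.2 and 18.0 TPM in WT ES (difference -1.84, adjusted p = 0.0124, and 0.0904 without WT ES library 1). The count of 54 genes was sensitive to single libraries. It was 11 without WT ES library 1, 362 without WT ES library 2, and 0 in a limma fit of only the libraries compared, where 2382 genes had an unadjusted p under 0.05.

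**Figure D4:**
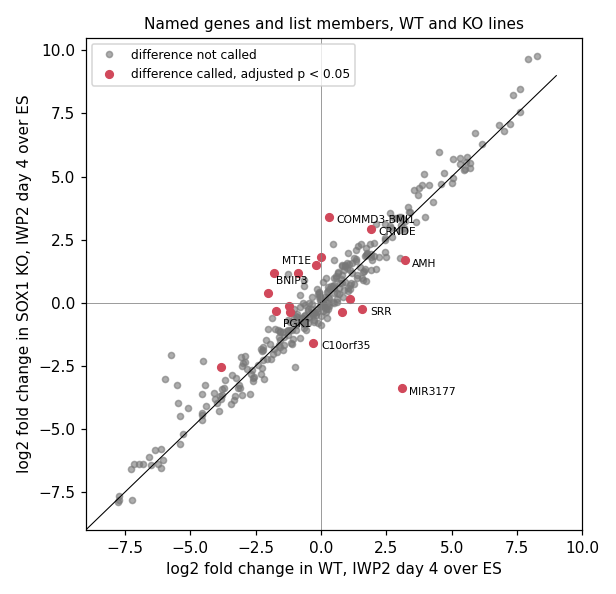
Log2 fold change of IWP2 day 4 over ES in SOX1-/- lines (y axis) against WT lines (x axis) for the named genes and list members that were tested. The black line marks equal change, and red points are genes whose KO minus WT difference was called. Most genes lie near the line, BNIP3 and MT1E lie to its upper left and SRR and AMH to its lower right.

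The day 4 step was also set against the other WT conditions of the same day. These comparisons use the same IWP2 day 4 libraries as the main one, so their values are given side by side. They also use its filter on the IWP2 day 4 and ES libraries. Genes under that filter but expressed under CT0.4 or CT1.0, such as SOX1, were therefore not tested. The counts and rankings below leave out such genes, which would be lower under IWP2. The IWP2 day 4 libraries had 19250 to 19401 genes at 1 TPM or more and 19.2 to 19.9% of TPM in ribosomal protein genes, against 17694 to 18233 genes and 24.95 to 28.4% in the WT CT0.4 and CT1.0 day 4 libraries. The part of this difference in the comparison was not tested. IWP2 exceeded CT0.4 for 3328 genes (16.3%) and was lower for 658 (3.21%), but with median-ratio scaling the split was 1609 higher and 1832 lower. Against CT1.0 the split was 5275 higher (25.8%) and 732 lower (3.57%), and 1732 higher and 1777 lower after scaling. Only differences of over 3 on the log2 scale, and genes of the lists above, are described.

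Eye field genes separated IWP2 from both other conditions. RAX had 165 and 159 TPM under IWP2, against 0.694 and 0.263 TPM under CT0.4 and 0.0806 and 0.0796 TPM under CT1.0. SIX3 had 157 and 156 TPM under IWP2, against 0.807 and 1.66 TPM under CT0.4 and 0.690 and 0.254 TPM under CT1.0. LHX2 had 181.8 and 160.3 TPM under IWP2, against 0.0738 and 0.682 TPM under CT0.4 and 2.92 and 2.09 TPM under CT1.0. All 3 genes were called higher under IWP2 in both comparisons, with log2 fold changes from 5.63 to 7.24, and were under 3 TPM in each CT library. Of the 5 eye field genes tested, 4 were called higher under IWP2 than under CT0.4 and 5 than under CT1.0. PAX6 had 94.7 and 91.2 TPM under IWP2, against 64.1 and 68.4 TPM under CT0.4 and 8.13 and 5.47 TPM under CT1.0 (limma adjusted p = 0.363 for CT0.4 and 1.35e-06 for CT1.0). DLK1 had 523 and 519 TPM under IWP2, against 218 and 193 TPM under CT0.4 and 731 and 822 TPM under CT1.0, all above both ES libraries. POU5F1 had 29.6 and 39.7 TPM under IWP2, against 46.5 and 34.1 TPM under CT0.4 and 61.3 and 54.1 TPM under CT1.0, all below both ES libraries. Of the 15 genes highest over ES, 8 were called higher under IWP2 than under CT0.4 and 9 than under CT1.0. Of the 15 lowest, 1 was called lower under IWP2 than under CT0.4 and 1 higher, and against CT1.0 the numbers were 2 and 1. Over all genes tested, 16.3% were called higher and 3.21% lower against CT0.4, and 25.8% and 3.57% against CT1.0. Both sets of 15 were ranked with the same IWP2 libraries, and RAX, SIX3, LHX2 and SIX6 passed the filter only through them. The counts of these genes are therefore partly set by how they were chosen.

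Among the genes that passed the filter in IWP2 day 4 and ES libraries, different developmental genes were among the lowest under IWP2 in each comparison. Against CT0.4, IRX1, a homeobox gene of caudal forebrain and more posterior levels, had 1.02 and 2.07 TPM under IWP2 and 71.8 and 86.4 TPM under CT0.4 (log2 fold change -5.00 ± 0.32). OTX1 had 2.23 and 3.46 TPM under IWP2 and 77.8 and 97.6 TPM under CT0.4 (-4.54 ± 0.39), and RSPO2, a secreted WNT amplifier, had 0.873 and 1.59 TPM under IWP2 and 44.4 and 40.3 TPM under CT0.4 (-4.30 ± 0.44). DBX1 and WNT4 were also among the 6 lowest. Against CT1.0, CYP26A1 had 0.702 and 0.689 TPM under IWP2 and 259 and 314 TPM under CT1.0 (-7.40 ± 0.54), and VGLL3, a TEAD cofactor, had 4.75 and 1.67 TPM under IWP2 and 331 and 375 TPM under CT1.0 (-6.49 ± 0.52). SPOCK1, RASL11B and KLHL4 were also among the 6 lowest against CT1.0. OTX2 under IWP2 lay between the other conditions, with 163 and 155 TPM under IWP2, 427 and 415 TPM under CT0.4 and 11.8 and 4.55 TPM under CT1.0. On the other side, MAF, a transcription factor of lens and neural cells, was at 26.1 and 27.9 TPM under IWP2, against 0.514 and 0.416 TPM under CT0.4 and 2.04 and 2.99 TPM under CT1.0.

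**Figure D5:**
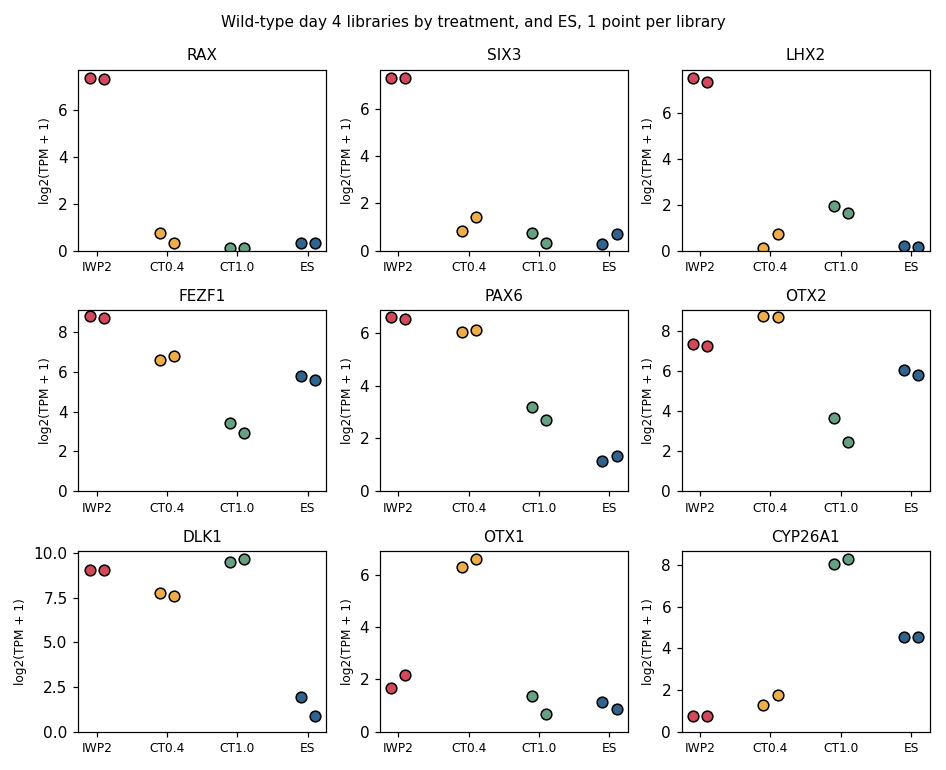
Level of 9 genes in wild-type libraries of IWP2, CT0.4 and CT1.0 day 4 and of ES, as log2(TPM + 1), 1 point per library. RAX, SIX3 and LHX2 are high under IWP2 alone, OTX1 under CT0.4 and CYP26A1 under CT1.0.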

How the data were processed

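Poly(A) RNA of 28 libraries was sequenced, and the values analysed are TPM per gene as deposited by the authors in one table. Per the submitters' processing notes the tools were CASAVA 1.7 and Salmon 0.8.2 and the genome build was hg38, with no strand setting given. The labels name 2 Illumina platforms without assigning libraries to them, so a platform effect cannot be told apart from the groups and no batch term could be fitted. TPM keeps no read depth, so the depth of the libraries is unknown and no counting intervals were made.

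All 14 groups were fitted together on log2(TPM + 1) with limma 3.58.1 in R 4.3.3 (intensity trend, 14 residual degrees of freedom), for the 20476 of 58219 genes with a TPM of at least 1 in at least 2 of the 4 libraries, with Benjamini-Hochberg adjustment over all of them. With 2 libraries against 2, an exact permutation test cannot go below p = 0.333, and p-values measure the spread between libraries that may be technical replicates. The contrasts were IWP2 day 4 minus ES in WT and in KO, the KO minus WT difference of these, and IWP2 minus CT0.4 and minus CT1.0 on day 4 in WT. Members and lists were chosen with earlier results of these data known. Genes were named by a rule: the 15 highest and 15 lowest called genes without overlap between groups and with a mean of at least 10 TPM in the higher group, up to 6 called and 3 uncalled members of each list, and the 6 highest and 6 lowest of each other contrast. Clone names, pseudogenes, ribosomal proteins and similar identifiers were left out by a name pattern completed after values had been seen, which also covers the Six3os1 rows. Genes said to be chosen after their values were seen fall outside it. Some genes that the rule or a list holds are not reported here. Gene coordinates came from GENCODE 29 (GRCh38), to which 57881 gene IDs matched.

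On simulated data with 200 changed genes, the WT day 4 against ES step called 66% of genes changed by 1 and 88% of those changed by 2 on the log2 scale, with 2.53% false calls. The changed genes were drawn from genes with a mean log2(TPM + 1) of at least 2, so these rates do not cover lower genes. Far fewer genes were changed in the simulation than were called in the data. Alternatives changed the pseudocount, filter, scaling, variance model, replicate block, fold threshold and libraries, and a fit without the 4 WT CT day 4 libraries and one of protein-coding genes only were added after seeing the data.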

Additional observations from a re-analysis of the deposited data

Results flagged for a closer look

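The change between ES and IWP2 day 4 differed between KO and WT, by the limma interaction term, for 12 genes named by size. Each was among the 6 highest or 6 lowest, ranked only among genes that passed the filter in the WT libraries. In the sentences that follow, the KO and WT changes are log2 fold changes of IWP2 day 4 over ES, and the difference is KO minus WT.

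Of genes with a higher change in KO, COMMD3-BMI1, a readthrough of neighbouring genes whose reads are shared with them and so uncertain, had a change of 3.40 in KO and 0.29 in WT, a difference of 3.11 ± 0.51 (SE, adjusted p = 0.0131). The metallothionein gene MT1E had a change of 1.16 in KO and -1.79 in WT, a difference of 2.95 ± 0.57 (SE, adjusted p = 0.0457). BNIP3, described with the low-oxygen genes, had a change of 0.39 in KO and -2.03 in WT, a difference of 2.41 ± 0.34 (SE, adjusted p = 0.00416). C5orf38 had a change of 1.16 in KO and -0.90 in WT, a difference of 2.06 ± 0.35 (SE, adjusted p = 0.0198). For FAM214A the values were a change of 1.80 in KO and -0.01 in WT, a difference of 1.81 ± 0.25 (SE, adjusted p = 0.00403). ZNF737, a zinc finger gene, had a change of 1.48 in KO and -0.19 in WT, a difference of 1.67 ± 0.30 (SE, adjusted p = 0.0348). In COMMD3-BMI1, FAM214A and ZNF737 the WT change was not called and the KO ES libraries were the lowest of the 4 groups, with COMMD3-BMI1 at 0.361 and 0.180 TPM in KO ES, against 3.39 and 2.12 TPM in WT ES.

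Of genes with a lower change in KO, SRR had a change of -0.26 in KO and 1.58 in WT, a difference of -1.84 ± 0.29 (SE, adjusted p = 0.0124). AMH, a hormone of the TGF-beta family, had a change of 1.68 in KO and 3.20 in WT, a difference of -1.52 ± 0.31 (SE, adjusted p = 0.0497). C10orf35 had a change of -1.61 in KO and -0.30 in WT, a difference of -1.31 ± 0.16 (SE, adjusted p = 0.0021). FARS2, a mitochondrial phenylalanyl-tRNA synthetase, had a change of -0.35 in KO and 0.79 in WT, a difference of -1.15 ± 0.22 (SE, adjusted p = 0.0457). For DNAJB12, a chaperone of the endoplasmic reticulum, the values were a change of 0.15 in KO and 1.10 in WT, a difference of -0.95 ± 0.19 (SE, adjusted p = 0.0498). The short row MIR3177 was listed at 0 and 0 TPM in KO IWP2 day 4 and 2.37 and 31.7 TPM in KO ES, against 5.37 and 10.4 TPM in WT IWP2 day 4 and 0 and 0 TPM in WT ES, a difference of -6.48 (adjusted p = 0.0457) whose size depends on the pseudocount because 4 libraries are listed at 0.

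Leaving out 1 of the 8 libraries ended 9 of these 12 calls without WT ES library 1, 9 without WT IWP2 day 4 library 1 and 9 without KO IWP2 day 4 library 26. BNIP3, FAM214A and C10orf35 kept their calls without any 1 library, with largest adjusted p of 0.0332, 0.0243 and 0.0171. In a fit of only the libraries compared none of the 12 was called by limma, where 2382 of all genes had an unadjusted p under 0.05.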

How the results depend on the processing

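Of 10029 genes called between IWP2 day 4 and ES in WT, 4879 also passed an absolute log2 fold change of 1, and leaving out 1 library gave 8126 to 8551. In KO the 9568 calls became 4511 with that fold, and 7768 to 8100 with 1 library left out. Against CT0.4, 3986 calls became 1045 with the fold, 570 in a fit of only the libraries compared, 1583 without CT0.4 library 1 and 3219 without CT0.4 library 2. Against CT1.0, 6007 calls became 1630 with the fold, 3669 in that fit, 3509 with median-ratio scaling, 3636 without CT1.0 library 1 and 4301 without CT1.0 library 2. The 54 genes whose change differed between KO and WT became 126 with no filter, 15 with a mean of at least 5 TPM, 34 without the 4 WT CT day 4 libraries, 32 among protein-coding genes, 0 in a fit of only the libraries compared (2382 at an unadjusted p under 0.05), 11 without WT ES library 1 and 362 without WT ES library 2. With the replicate block the calls were 10160 in WT, 9679 in KO, 37 for the difference, 4166 against CT0.4 and 6146 against CT1.0, but the numbers did not pair the samples (correlation of replicate differences between day 4 and ES across genes -0.06 in WT and -0.02 in KO). Of 330 named genes or list members tested between IWP2 day 4 and ES in WT, a fit of only these libraries ended 23 calls, among them PORCN, AXIN2, NKD2, FST, ACVR1B, TET1, MT1X, IRX3 and EGR2, and added 4. Scaling ended 4 and added 10. Without ES library 1, 22 calls were lost. No result changed sign while called. Where a library was left out, the lone library was assumed to vary like the other groups. The cause of these shifts was not tested. The unknown depth of TPM and 2 libraries a group limit what small changes can show.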

Other observations

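Gene families that no comparison above covers were also counted, and they were chosen after results of these data had been seen. Over all genes tested, 28.7% were called higher and 20.3% lower. Of 14 claudin genes tested, 9 were called lower and 2 higher on day 4. CLDN3 had 6.44 and 6.84 TPM on day 4 and 41.9 and 24.5 TPM in ES, and CLDN4 had 1.84 and 2.84 TPM in the day 4 libraries, against 19.5 and 10.7 TPM in the ES libraries. Of 10 S100 genes, which encode small calcium-binding proteins, 6 were called lower and none higher. S100A11 had 4.98 and 3.82 TPM at IWP2 day 4, against 207 and 205 TPM in ES, and S100A10, the annexin A2 partner, had 1.93 and 0.678 TPM on day 4 and 77.1 and 71.5 TPM in ES. Of 20 ephrin and Eph receptor genes 11 were called higher and 5 lower. EPHA4 had 162 and 158 TPM in the day 4 libraries, against 7.36 and 9.36 TPM in the ES libraries, and EPHA1 had 5.27 and 5.57 TPM at IWP2 day 4, against 96.8 and 106 TPM in ES. Of 32 semaphorin and plexin genes 17 were called higher and 5 lower, and of 31 clustered protocadherin genes 14 were called higher and 1 lower. Of 32 collagen genes 10 were called higher, a share near that of all genes, and 14 lower.

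All 13 mitochondrial messenger RNAs were tested, 11 were called lower and none higher. MT-CO2 had 10405 and 9791 TPM on day 4 and 17996 and 21339 TPM in ES, and MT-ND5 had 1408 and 1468 TPM in the day 4 libraries, against 2672 and 2822 TPM in the ES libraries. Of 478 zinc finger genes of the ZNF series 218 were called higher, 32 lower and 228 not at all, and median-ratio scaling changed the called numbers to 158 higher and 56 lower, against 4397 higher and 5351 lower of all genes tested. Of 78 cytosolic ribosomal protein genes 13 were called higher and 9 lower, and with median-ratio scaling 0 were called higher and 16 lower. PGM1, a phosphoglucomutase, had 2.88 and 2.83 TPM at IWP2 day 4, against 61.0 and 46.6 TPM in ES (log2 fold change -3.82 ± 0.18, adjusted p = 3.8e-11).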
